A study of Mus musculus with 12 samples.

Results

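The 10 genes described here were chosen from the genes on both sides of Cyp1b1 on mouse chromosome 17, and not all of the nearest genes are among them. They are Strn, Eif2ak2, Prkd3, Qpct and Cdc42ep3 on one side, and Galm, Dhx57, Sos1, Map4k3 and Slc8a1 on the other. These are 10 of the 27975 genes with a probe on the array. Cyp1b1 itself is a cytochrome P450, an enzyme acting on steroids, retinoids and polycyclic hydrocarbons. The data are 12 two-colour Agilent arrays of liver RNA from male mice in 4 groups of 3, namely Cyp1b1 null mice and C57BL6/J wild-type mice on a low-fat diet (10% fat), and Cyp1b1 null and wild-type mice on a high-fat diet (60% fat). All mice went onto their diet at weaning at 3 weeks and were killed at 14 weeks. Every sample was labelled with Cy3 and hybridised against a Cy5-labelled pool of wild-type low-fat liver, and each sample is described as 3 pooled samples. The construction of the null allele was not stated in the labels, and the p-values below measure the spread between arrays of such pools.

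A gene targeted in embryonic stem cells is passed on together with the DNA on either side of it, and backcrossing to another strain shortens that stretch only gradually. Genes beside a targeted gene are therefore commonly looked at in null mice. No genotype was measured, so the strain from which the flanking DNA of these mice came was not tested. The flanking genes themselves have unrelated functions. Qpct encodes glutaminyl cyclase, which closes an N-terminal glutamine or glutamate into pyroglutamate. Prkd3 encodes a protein kinase D, Sos1 an exchange factor that loads Ras with GTP, and Map4k3 a kinase linked to amino acid sensing. Eif2ak2 encodes PKR, an interferon-induced kinase that is switched on by double-stranded RNA and blocks translation through eIF2alpha. Galm encodes galactose mutarotase, which feeds galactose into the Leloir pathway. Strn is the striatin scaffold of the STRIPAK phosphatase complex, Cdc42ep3 binds the GTPase Cdc42, Dhx57 is a putative RNA helicase, and Slc8a1 is the sodium-calcium exchanger best known from heart.

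The 10 genes had 25 probes of 60 bases. Gene order was taken from RefSeq (assembly GRCm38.p6), since the array files name no build, and it is given as the number of protein-coding genes from Cyp1b1, negative on the Strn side. By that count Strn was at -13, Eif2ak2 at -10, Prkd3 at -4, Qpct at -3, Cdc42ep3 at -2, Galm at 4, Dhx57 at 8, Sos1 at 11, Map4k3 at 13 and Slc8a1 at 16. Between 26.7% and 45.0% of the bases of the 25 probes were G or C, against a median of 40.0% over all 41174 probes, and no probes of the same gene shared a run of more than 8 bases. The first 30 bases of the probes on which the results turn are printed here, 5′ to 3′, as the array files give them. The 4 Prkd3 probes are shown because they gave different results for the same gene, Qpct and Galm because they had the smallest p-values, and Slc8a1 for its pattern of detection. Capitals mark AATAAA, the commonest polyadenylation signal, searched on the printed strand of the whole probe. It was found in 2 of the 4 Prkd3 probes and in no other of the 25, and 4.78% of all probes hold it. Where each probe lies in its transcript was not determined.
Prkd3 A_51_P315941: tAATAAAggccacggcaggtcaggagctcc
Prkd3 A_51_P106397: ccttggctacaggattatcagacttggctt
Prkd3 A_52_P669996: cagccagctgttttgtagtagttattaata
Prkd3 A_52_P94495: tgcgtgtctcatgatgaataactcAATAAA
Qpct A_51_P497295: tgcttctacagcaacttcaagacaccattt
Galm A_51_P136337: tgaggcctggagaggaatacaaccacacta
Slc8a1 A_51_P277373: tgtatcggcggaggccagaaataggagcca

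Values are log2 ratios of sample over reference, corrected for background and normalised within each array, so that 0 means the same level as the wild-type low-fat pool. A probe counted as measured where the sample signal exceeded background by the scanner software's own mark on all 3 arrays of some group. Of the 25 probes 16 were measured, from 9 of the 10 genes, and 12 were above background on all 12 arrays. One Prkd3 probe, A_51_P315941, was measured only through the wild-type high-fat arrays. None of the 7 Slc8a1 probes was measured.

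Facts of the whole series bear on these values. Per array, 18368 to 23438 of 41174 probes carried that mark in the sample channel and 17296 to 25995 in the reference channel. Arrays fell into 3 scans by the date in the file headers, with 4 null and 2 wild-type arrays in scan 1, 2 of each in scan 2, and 0 null and 2 wild-type arrays in scan 3. Between arrays of different groups, deviations from the group means had a median correlation of 0.368 within a scan and -0.178 between scans, so values with scan as a block are given for Qpct and Galm. Hepatocyte markers (7 of 7 on the array) were above background on all 12 arrays, and so were 8 of 8 Kupffer cell and macrophage markers and 6 of 6 sinusoidal endothelial markers, although the labels name hepatocytes as the source. Wild-type low-fat array 1 stood apart, with a median log2 ratio of 0.50 over the stellate cell markers, against -0.67 and -0.35 on the other arrays of its group, and of 0.31 over the Kupffer markers, against -1.48 and -0.34. Without it the mean difference between null and wild-type was -0.73 for Qpct and the low-fat difference of Galm was 0.75, against -0.74 and 0.76 with it. The summed signal of the 7 stellate markers ran from 6128 to 13610 on null and from 8672 to 53420 on wild-type arrays at low fat, and from 8254 to 13780 and from 12060 to 13270 at high fat. The part of these cells in the results was not tested, and in whole liver fewer cells of a type cannot be told apart from less RNA per cell. The Cyp1b1 probe A_51_P255456 was brighter on null arrays, by 2.22 ± 0.34 on the log2 scale at low fat and 1.75 ± 0.34 at high fat (SE, n = 3 arrays a group). In the mean of both diets the difference was 1.99, with an adjusted p of 0.00692 by limma. On this probe wild-type low-fat array 1 had a signal over local background of 279.5, against 14.46 and 12.62 on the other arrays of its group and 299.7 on the lowest null array. Without that array the low-fat difference was 2.60 and passed (adjusted p = 0.0256 by limma, against 0.0956 with it). The place of the probe relative to the deletion was not stated in the labels, so it does not check them, and null means labelled null.

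The first question was whether the flanking genes differed between null and wild-type livers. No probe of the 10 genes passed the threshold of an adjusted p under 0.05 in any comparison. Calls were rare over the whole array too. At low fat 4 of 21490 measured probes passed (0.0186%), at high fat 1 (0.00465%), and in the mean of both diets 53 (0.247%), 30 of them higher and 23 lower in null livers. Of the 9 measured genes, each taken by its brightest measured probe, 5 were higher and 4 lower in null livers, in each diet. Over all 14911 measured genes 7326 were higher and 7585 lower at low fat, and 7556 higher and 7355 lower at high fat. The median difference of the 9 genes was 0.01 at low fat and 0.00 at high fat, against -0.01 and 0.00 over all genes. Their median size, whatever the sign, was 0.30 at low fat and 0.08 at high fat, against 0.18 and 0.11 over all genes.

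**Figure D1:**
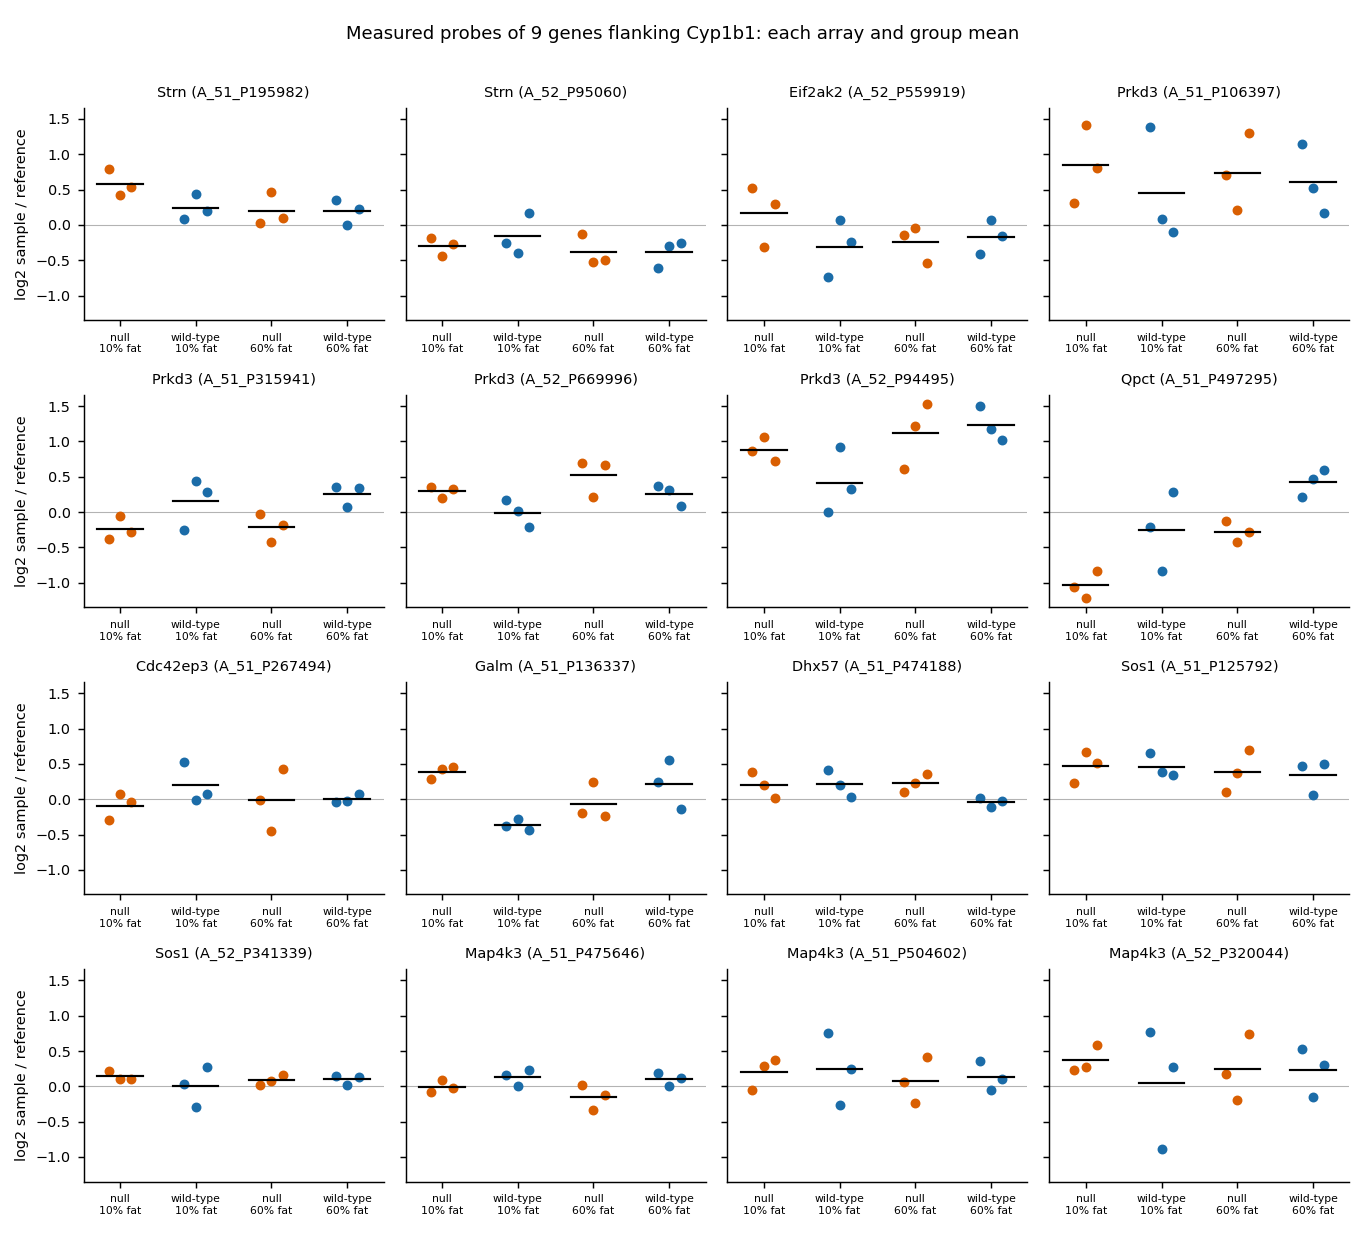
Log2 ratio of sample over reference (vertical axis) on each array for the 16 measured probes of 9 flanking genes, in null (orange) and wild-type (blue) livers on 10% and 60% fat. Bars are group means of 3 arrays. The Qpct means lie lower in null livers in both diets, with the points overlapping at 10% fat and apart at 60% fat. The Galm points lie higher in null livers at 10% fat only.

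Qpct had the smallest p-value of the 10 genes in the mean of both diets. At low fat its probe A_51_P497295 read -1.06, -1.21 and -0.84 on the null arrays and -0.22, -0.84 and 0.28 on the wild-type arrays. The lowest wild-type array thus lay among the null arrays. At high fat it read -0.12, -0.43 and -0.28 on null arrays and 0.21, 0.47 and 0.60 on wild-type arrays, and the groups did not overlap. The difference was -0.78 ± 0.25 at low fat and -0.71 ± 0.25 at high fat (SE, n = 3 arrays a group). In the mean of both diets it was -0.74 ± 0.17 (SE), with an adjusted p of 0.181 by limma over all measured probes. Leaving out each of the 12 arrays in turn gave -0.61 to -0.89, with adjusted p from 0.0278 to 0.481 by limma, and Qpct passed in 1 of these 12 fits, the one without wild-type low-fat array 2, which is the array that overlapped. With scan as a block the difference was -0.59 (adjusted p = 0.165 by limma). It passed in the mean of both diets with the scanner's own processed signals (-1.25, adjusted p = 0.0121 by limma) and with the sample channel alone (-0.91, adjusted p = 0.00873 by limma). Within scan 1 Qpct differed by -0.81 at low fat and -0.42 at high fat, and within scan 2 by -0.22 and -0.90, each between 1 or 2 null arrays and 1 wild-type array, with no test.

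Qpct also read higher on high-fat than on low-fat arrays in both genotypes, by 0.76 in null livers (adjusted p = 1 by limma) and by 0.69 in wild-type livers (adjusted p = 1 by limma). Its group means were -1.04 ± 0.19 in null low-fat, -0.26 ± 0.56 in wild-type low-fat, -0.28 ± 0.15 in null high-fat and 0.43 ± 0.20 in wild-type high-fat livers (SD, n = 3 arrays each). In order, null low-fat livers were lowest and wild-type high-fat livers highest, while wild-type low-fat and null high-fat livers did not differ beyond their spread. The measured genes whose log2 ratios were most like those of Qpct over the 12 arrays were Bckdhb, a subunit of the branched-chain keto acid dehydrogenase (Pearson r = 0.953), Slc22a5, the carnitine transporter (r = 0.943), and Creg1, a secreted glycoprotein (r = 0.932). These correlations describe 12 arrays that share 1 reference pool and 3 scans. Qpctl, the Golgi paralogue of Qpct, lies elsewhere in the genome and differed by 0.25 in the mean of both diets (adjusted p = 0.535 by limma).

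Prkd3 was read by 4 probes, and 1 of them differed from the others. Its probe A_51_P315941 was well above background on no null array and on 5 of 6 wild-type arrays. The sample signal over local background, in scanner units, was 1.72, 15.97 and 14.7 on null arrays and 26.9, 46.2 and 39.7 on wild-type arrays at low fat. At high fat it was 7.33, 6.17 and 10.1 on null arrays and 47.5, 57.7 and 46.2 on wild-type arrays. Every null array was thus below every wild-type array. Over the whole array 123 of 41174 probes (0.299%) lay below every wild-type array on every null array in this signal, and 47 (0.114%) lay above. Among the 25 probes of the 10 genes it was the only one that lay below and none lay above, and among the 86 other probes of the neighbourhood, Cyp1b1 included, only the Cyp1b1 probe A_51_P255456 was apart, higher in null.

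**Figure D2:**
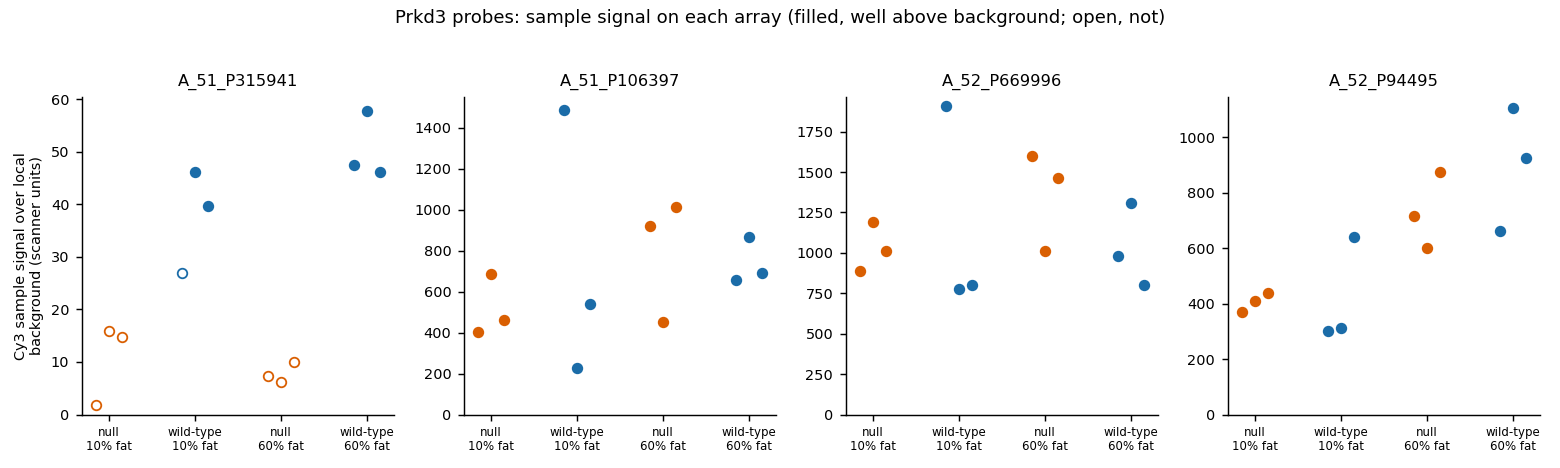
Cy3 sample signal over local background (vertical axis, scanner units, not normalised between arrays) on each array for the 4 Prkd3 probes, in null (orange) and wild-type (blue) livers. Filled points were well above background and open points were not. On A_51_P315941 the null arrays reach at most 15.97 and the wild-type arrays start at 26.9, while the groups overlap on the other probes.

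The reference channel gives a reading of the same probe with wild-type RNA on the same spots. On null low-fat array 1 the null sample read 1.72 where the reference read 43.3, and on null high-fat array 2 the null sample read 6.17 where the reference read 59.3. On the other 4 null arrays, all in scan 1, the reference was itself dim, at 5.53 to 13.1. On the wild-type arrays of scan 2 the wild-type sample read 46.2 at low fat, beside a reference of 42.7, and 57.7 at high fat, beside a reference of 63.4. The reference was well above background on 3 of 6 null arrays and 5 of 6 wild-type arrays.

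**Figure D3:**
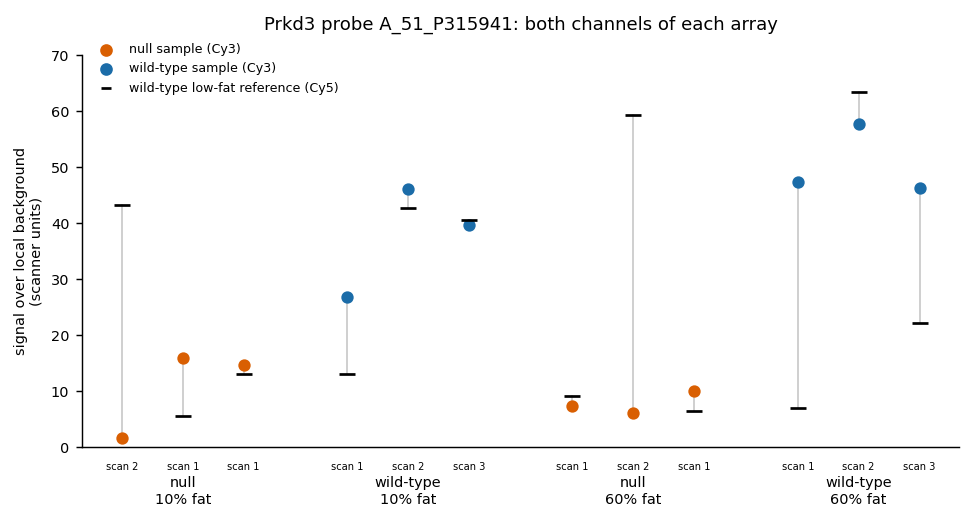
Signal over local background (vertical axis, scanner units) of Prkd3 probe A_51_P315941 on each array, for the sample (points, null orange and wild-type blue) and the wild-type low-fat reference (bars) of the same spot, with the scan of each array below. In scan 2 the null samples read 1.72 and 6.17, well under the reference at 43.3 and 59.3 on the same arrays.

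After background correction the probe A_51_P315941 had log2 ratios of -0.37, -0.06 and -0.29 on null and -0.25, 0.44 and 0.28 on wild-type arrays at low fat, where the groups overlapped. At high fat it had -0.03, -0.42 and -0.18 on null and 0.36, 0.07 and 0.35 on wild-type arrays, where they did not. The fit gave an adjusted p of 0.371 by limma in the mean of both diets, but the probe entered it only through the wild-type high-fat arrays, where it is high, so the test supports nothing. The offset of 50 added in the background correction shrinks differences of probes as dim as this one. Each null array was then taken at the higher of its own reading and the lowest signal well above background of any probe on it. With that, the mean signal was 1.29-fold higher in wild-type than in null livers at low fat, where 2 of 3 wild-type arrays were above background. That lowest signal is not the detection limit of this probe, so the 1.29-fold is not a strict bound. At high fat the null readings were themselves above that lowest signal, and the means of the readings differed by 1.5-fold. Both folds come from signals that hold the same offset of 50, so they are shrunken too. The authors' deposited table, made without that offset, gives log2 differences of -1.80 at low fat and -3.90 at high fat for null over wild-type, with the null arrays not well above background. Within scan 1 the difference was 0.08 at low fat and -0.46 at high fat, and within scan 2 it was -0.81 and -0.50.

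The other 3 Prkd3 probes were above background on all 12 arrays and did not show this difference. A_52_P669996 read 0.35, 0.20 and 0.33 on null and 0.17, 0.02 and -0.21 on wild-type arrays at low fat, with null above wild-type on every array. At high fat it read 0.69, 0.22 and 0.66 on null and 0.38, 0.32 and 0.08 on wild-type arrays, where the groups overlapped. Its mean difference was 0.28 ± 0.12 (SE, adjusted p = 0.577 by limma). A_51_P106397 differed by 0.26 ± 0.31 and A_52_P94495 by 0.17 ± 0.19 in the mean of both diets (SE), both within their error, and they turned to -0.14 with scan as a block and to -0.02 with the sample channel alone. A_52_P94495 read 0.24 higher on high-fat than on low-fat arrays in null livers and 0.82 higher in wild-type livers (adjusted p = 1 for both by limma). The 4 probes therefore gave no single Prkd3 difference. The other protein kinase D genes, Prkd1 and Prkd2, belonged to a list of 17 paralogues of the 10 genes. Of these 15 were measured, and none of the 15 passed in any genotype comparison. Prkd2 differed by 0.04 in the mean of both diets (adjusted p = 0.982 by limma), and Prkd1 was not measured and so not tested.

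Slc8a1 was at or near background in these livers. Its probe A_51_P277373 was well above background on no null array and on 4 of 6 wild-type arrays, 2 in each diet. At low fat its signal over local background was 7.97, 11.9 and 10.6 on null and 79.1, 29.1 and 12.4 on wild-type arrays. At high fat it was 13.7, 8.71 and 15.6 on null and 15.97, 11.6 and 11.0 on wild-type arrays. The groups overlapped at high fat, and at low fat the highest value was on wild-type low-fat array 1. The mark did not follow the signal on this probe. Wild-type arrays at 12.4, 11.6 and 11.0 carried it, while wild-type arrays at 29.1 and 15.97 and null arrays at 13.7 and 15.6 did not. Those at 12.4 and 11.0 were in scan 3, which holds no null array. Being well above background on no null array and on at least 4 wild-type arrays was seen for 2 of the 25 probes, this one and Prkd3 A_51_P315941, and for 83 of all 41174 probes (0.202%). The reverse pattern was seen for none of the 25 and for 32 of all probes (0.0777%). The 109 probes of the 60 protein-coding genes nearest to Cyp1b1, 30 on each side, held the same 2 and no other. Of the other 6 Slc8a1 probes, A_52_P562704 was above background on 2 null low-fat, 0 wild-type low-fat, 2 null high-fat and 2 wild-type high-fat arrays, and the rest on no more than 2 arrays each.

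Galm had the smallest p-value of the 10 genes for a single diet. At low fat its probe A_51_P136337 read 0.29, 0.42 and 0.46 on null arrays and -0.38, -0.28 and -0.44 on wild-type arrays, so that every null array was above every wild-type array. How many of all probes stood apart in this way at low fat was not counted. At high fat it read -0.20, 0.24 and -0.24 on null arrays and 0.24, 0.55 and -0.15 on wild-type arrays, which overlapped. The difference was 0.76 ± 0.19 at low fat (SE, adjusted p = 0.355 by limma) and -0.28 ± 0.19 at high fat (SE, adjusted p = 1 by limma), where it turned to 0.16 with uncorrected, uncentred signals. The test of the difference between diets gave -1.04 (adjusted p = 1 by limma), and no measured probe passed that test (0.00%). At an unadjusted p under 0.05, 184 of 21490 probes (0.856%) differed between diets in their genotype difference, and Galm was the only one of the 9 measured genes among them. High-fat minus low-fat arrays gave -0.46 in null livers and 0.58 in wild-type livers (adjusted p = 1 for both by limma). Within scans the low-fat difference was 0.82 and 0.57 and the high-fat difference -0.46 and -0.32. The low-fat difference was 0.68 with scan as a block (adjusted p = 0.171 by limma) and 0.39 with slide as a block. The second Galm probe, A_52_P129672, was not well above background on any array.

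Of the 7 genes of galactose breakdown listed beside Galm, all were measured and none passed in any genotype comparison. Their median difference was 0.01 at low fat and -0.07 at high fat. Galk1, which phosphorylates the galactose that Galm supplies, differed by -0.40 in the mean of both diets (adjusted p = 0.573 by limma). Galt, the uridylyltransferase of the next step, differed by 0.12. No gene of the list other than Galk1 had an unadjusted p under 0.05 in the mean of both diets.

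Eif2ak2 read 0.52, -0.31 and 0.30 on null and -0.73, 0.06 and -0.25 on wild-type arrays at low fat, and -0.15, -0.04 and -0.54 on null and -0.41, 0.06 and -0.15 on wild-type arrays at high fat. The groups overlapped in both diets, with differences of 0.48 ± 0.26 and -0.08 ± 0.26 (SE). Without wild-type low-fat array 1, which read lowest, the low-fat difference was 0.26. All 25 interferon-stimulated genes listed beside Eif2ak2 were measured, and none passed. Their median difference was -0.07 at low fat and -0.14 at high fat, with 15 and 18 of the 25 lower in null livers. Over all 14911 measured genes 7585 were lower at low fat and 7355 at high fat. Isg15, a ubiquitin-like protein induced by interferon, differed by -0.37 in the mean of both diets (adjusted p = 0.535 by limma), and Ifit3, an antiviral protein, by -0.38 (adjusted p = 0.734 by limma). Of 12 other eIF2alpha kinases and their targets, all measured, none passed. Asns, asparagine synthetase, differed by 1.67 in the mean of both diets (adjusted p = 0.32 by limma) and Sesn2, a stress-induced inhibitor of mTORC1, by -0.47 (adjusted p = 0.492 by limma).

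Sos1 had nearly equal values in both genotypes. Its probe A_51_P125792 read 0.22, 0.67 and 0.51 on null and 0.65, 0.38 and 0.34 on wild-type arrays at low fat, and 0.10, 0.37 and 0.70 on null and 0.48, 0.06 and 0.49 on wild-type arrays at high fat. The groups lay over each other in both diets, with differences of 0.01 ± 0.20 and 0.04 ± 0.20 (SE). Its second probe, A_52_P341339, differed by 0.14 ± 0.15 at low fat and -0.02 ± 0.15 at high fat (SE). All 16 genes of the Ras-ERK pathway listed beside Sos1 were measured, and the list was chosen with earlier results of these data known. By its brightest measured probe 1 gene passed in the mean of both diets, against 23 higher and 19 lower of all 14911 measured genes. It was Egfr, the receptor upstream of Sos1, which lies on chromosome 11. Of its 6 probes 5 were measured, all higher on every null array than on every wild-type array of the same diet. Over the whole array this held for 144 of 21438 probes (0.672%). Of the 5 probes 3 passed, with differences of 1.36, 1.38 and 2.01 in the mean of both diets (adjusted p = 0.00677, 0.0495 and 0.0437 by limma).

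Strn gave 2 measured probes that did not move together. A_51_P195982 read 0.79, 0.43 and 0.53 on null and 0.09, 0.44 and 0.20 on wild-type arrays at low fat, a difference of 0.34 ± 0.17 (SE), and it differed by 0.01 ± 0.17 at high fat. A_52_P95060 differed by -0.13 ± 0.18 and 0.00 ± 0.18 (SE). Of 14 other STRIPAK members 11 were measured and none passed. Stk24, a kinase of the complex, differed by -0.30 in the mean of both diets (adjusted p = 0.724 by limma), and Strn4, a striatin paralogue, by 0.34 (adjusted p = 0.78 by limma).

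None of the remaining genes passed in any comparison, and the signs of most of their differences changed with the processing. Map4k3 had 3 measured probes, with mean differences over both diets of -0.19 ± 0.10 (A_51_P475646), -0.05 ± 0.18 (A_51_P504602) and 0.16 ± 0.27 (A_52_P320044). All 3 overlapped between genotypes in both diets, and the last read from -0.89 to 0.78 within the wild-type low-fat group. Among its paralogues, Map4k4 differed by -0.88 in the mean of both diets (adjusted p = 0.294 by limma). Dhx57 read 0.38, 0.20 and 0.01 on null and 0.41, 0.21 and 0.02 on wild-type arrays at low fat, with almost the same values in both. At high fat Dhx57 read 0.11, 0.23 and 0.36 on null and 0.02, -0.11 and -0.03 on wild-type arrays, where null was above wild-type on every array and the difference was 0.27 ± 0.15 (SE, adjusted p = 1 by limma). Cdc42ep3 differed by -0.29 ± 0.22 at low fat and -0.02 ± 0.22 at high fat (SE).

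**Figure D4:**
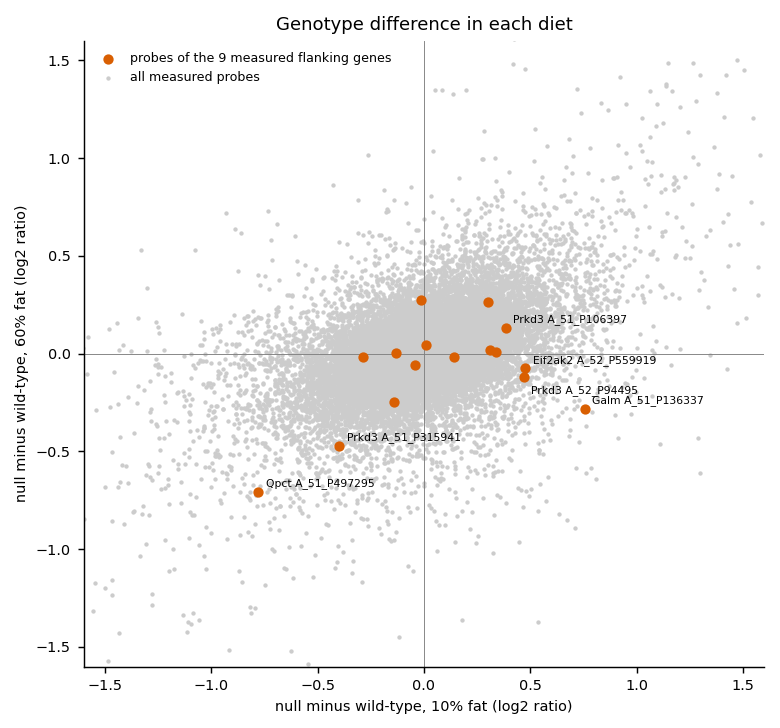
Null minus wild-type difference in log2 ratio at 10% fat (horizontal axis) and at 60% fat (vertical axis) for all 21490 measured probes (grey, 105 of them outside the axes) and the 16 measured probes of the flanking genes (orange). Qpct lies low in both diets, Galm to the right and below 0, and most of the other points near the centre.

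At an unadjusted p under 0.05 by limma, 2 of 15 measured probes differed at low fat (Qpct and Galm), 1 at high fat (Qpct) and 2 in the mean of both diets (Qpct and Prkd3 A_52_P669996), leaving out Prkd3 A_51_P315941, which was measured only through the group where it is high. Over all measured probes 1520 (7.07%) did so at low fat, 478 (2.22%) at high fat and 1699 (7.91%) in the mean of both diets. None of the 16 probes had log2 ratios on the null arrays that were all below, or all above, those of the wild-type arrays in both diets. Over 21438 measured probes with complete values this held for 144 below (0.672%) and 144 above (0.672%). Standing apart in a single diet, as described for Qpct, Galm, Dhx57 and Prkd3, is a weaker condition. Its share over all probes was not counted. High-fat against low-fat arrays gave 1 call over all probes in wild-type livers (0.00465%) and 1 in null livers (0.00465%), and neither was among the 10 genes.

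The genes between and beyond the 10 were read in the same way. Of the 60 protein-coding genes nearest to Cyp1b1, 58 were on the array and 47 were measured, and none passed in any genotype comparison. Their median difference was 0.04 at low fat and 0.04 at high fat, and that of the 582 other measured genes of chromosome 17 was 0.00 and 0.03. The 50 neighbours that are not among the 10 held 38 measured genes. By their brightest measured probes these ran from -0.97 to 0.79 at low fat and from -0.58 to 0.59 at high fat. At an unadjusted p under 0.05 by limma, 2 of them differed at low fat (5.26%), 1 at high fat (2.63%) and 3 in the mean of both diets (7.89%). Over all 14911 measured genes the shares were 7.51%, 2.67% and 8.67%. None of these 38 had null arrays apart from all wild-type arrays in both diets. Qpct, at -3, stood between Prkd3, whose brightest probe differed by 0.28 in the mean of both diets, and Cdc42ep3, which differed by -0.15.

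**Figure D5:**
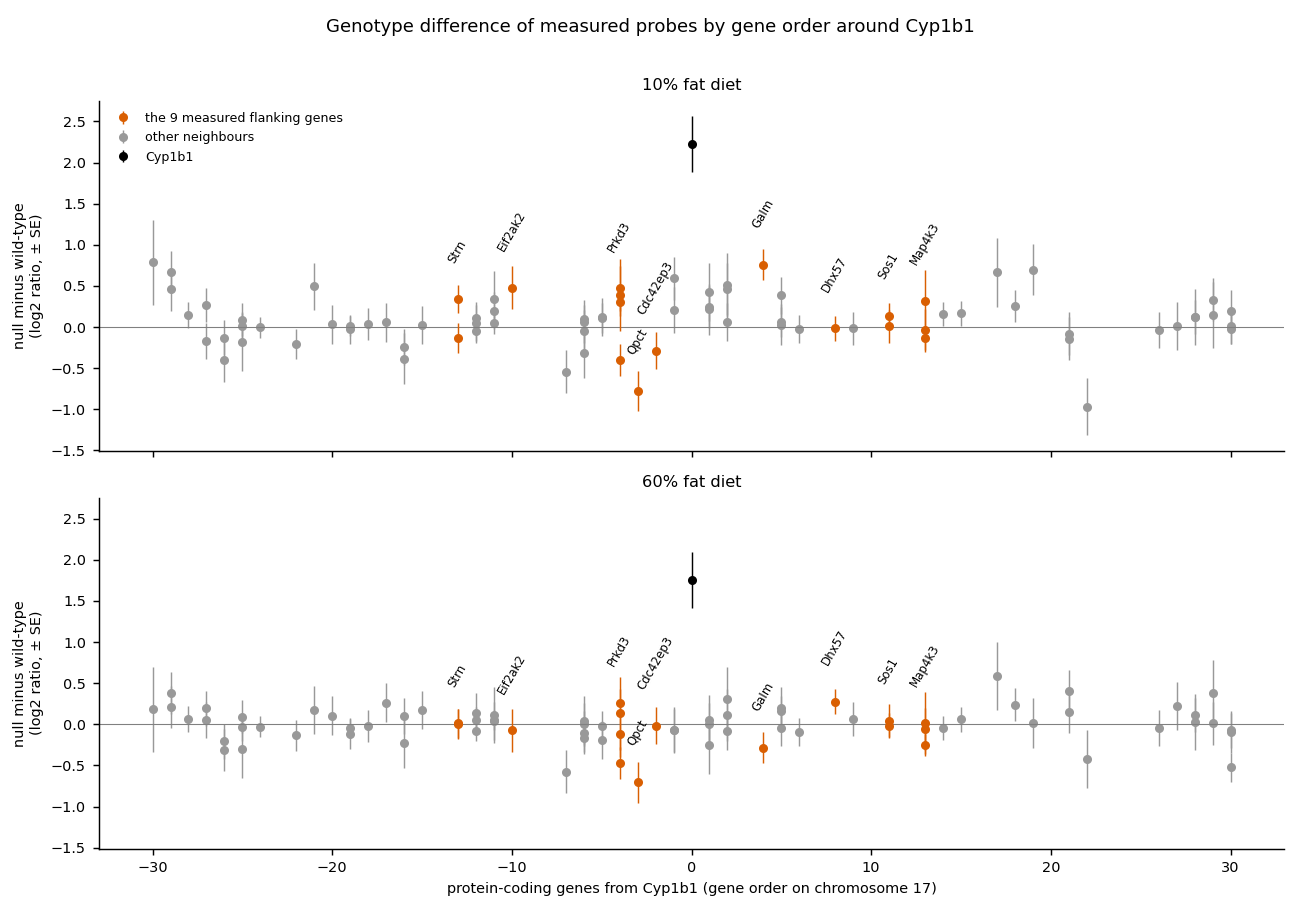
Null minus wild-type difference in log2 ratio (vertical axis, ± SE, n = 3 arrays a group) at 10% and 60% fat for measured probes of Cyp1b1 (black), of the 9 measured flanking genes (orange) and of the other neighbours (grey), by their order in protein-coding genes from Cyp1b1 (horizontal axis). Cyp1b1 stands at 2.22 and 1.75, and Qpct is the lowest of the 9 measured flanking genes in both diets. At 10% fat a grey neighbour lies lower than Qpct, at -0.97.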

How the data were processed

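Per the file headers, Agilent's Feature Extraction (spot analysis 9.1.3.1) made the deposited intensity values, which are the mean brightness and median local background of each spot in both colours, with its marks for spots well above background or not uniform. The deposited log10 ratios, of Cy5 over Cy3, come from its processed signals, per the file headers. The authors' deposited table holds log2 differences of group means, and it equals those of the log10 ratios on all 43379 spots within 1e-06. The submitters' processing notes name limma.

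Spot intensities were analysed with R 4.3.3 and its package limma 3.58.1. Normexp (offset 50) corrected the background, loess normalised each array's log2 ratio of sample to reference, 120 non-uniform spots were left out, and the repeated spots of 245 probes were averaged. Each measured probe was fitted with 1 mean per group over all 12 arrays (degrees of freedom: 8 residual, 3.07 prior). Adjustment was by Benjamini-Hochberg over 21490 probes, with calls at 0.05. There were 6 comparisons, null against wild-type in each diet and in their mean, the interaction, and high against low fat in each genotype. Of 41174 probes 24844 were named through accessions, 6045 by symbol, 1810 by an older symbol, and 8475 kept the file's name. The folds given for Prkd3 A_51_P315941 use Cy3 values after normexp (offset 50), loess and Aquantile. Dye effects that vary from array to array are not removed, since no dyes were swapped. The fit was tested on simulated data with independent noise and no scan effect, so that test does not cover the spread shared within scans.

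The 10 genes and all lists were chosen with earlier results of these data known. The genes named are the 10 with all their probes, Cyp1b1, those of the 60 nearest genes that passed or stood apart in both diets, and, of each partner list, the members that passed or the 2 with the smallest p. For Qpct the 3 genes most like it were added. The signals of Prkd3 in each channel were described after their values were seen. Over all groups equal replicate numbers did not pair the arrays. Same-numbered arrays had a median correlation of -0.03 in their deviations from group means, whereas arrays of 1 scan had 0.368 (over 0.1 in 16 of 20 pairs). Wild-type low-fat and high-fat arrays of the same number did share a scan and slide, with correlations of 0.347, 0.336 and 0.475. The fit does not use this pairing. Scan is not in the model and enters as an alternative. Alternatives covered the background correction, normalisation, filter, scan, slide and replicate blocks and each array left out.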

Additional observations from a re-analysis of the deposited data

How the results depend on the processing

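In the settings tried, no member probe passed at low fat, in the interaction or in either diet comparison. At high fat 1 passed with Agilent's processed signals, and in the mean of both diets 2 passed with those signals and 2 with the sample channel alone. Prkd3 A_51_P315941, measured only through the group where it is high, is 1 in each of these counts, and without it they are 0, 1 and 1, the 1 being Qpct. Leaving out each array in turn gave 0 to 1 member probes in the mean of both diets and 0 in the other 5 comparisons, the 1 being Qpct. With the replicate block 0 member probes passed in each of the 6 comparisons, and over all probes the mean of both diets had 31 calls with the replicate block, against 53 without it. Over all probes that count was 283 with processed signals, 330 with the sample channel alone, 103 with scan as a block, 26 without the filter or with a robust variance trend, 13 with slide as a block and 1 with median centring. With mean signals not corrected for background it was 0 uncentred and 2 when median centred. At low fat the 4 calls became 53 with processed signals, 48 with the sample channel alone and 13 with scan as a block, and at high fat the 1 call became 61, 44 and 2, with 0 to 3 at low fat and 0 to 2 at high fat in the other settings. Without 1 array in turn all-probe counts ran from 1 to 28 at low fat, 0 to 6 at high fat and 22 to 136 in the mean of both diets. Why was not tested. Of 48 differences of member probes (16 probes in 3 genotype comparisons), 19 kept their sign in every setting with a test, among them all 3 of Qpct. The 19 also include all 3 of Prkd3 A_51_P315941, measured only through the group where it is high, so their signs support nothing. The difference of Cyp1b1 in the mean of both diets lost its call with median centring (2.28), slide as a block (1.79) and uncorrected signals (3.01, and 2.83 when centred). Slc8a1, Galm A_52_P129672 and Strn A_51_P252061 were too dim to test.

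Sign changes were common among the small differences of member probes and in the Cyp1b1 interaction (the null minus wild-type difference at high fat minus that at low fat). They were seen for 92 values in the settings named next and for 68 with 1 array left out, with 0 of them past the threshold. Each log2 value given for a setting has the opposite sign to the main one. With Agilent's processed signals the low-fat difference was 0.12 for Dhx57, 0.15 for Map4k3 A_51_P475646 and 0.054 for Map4k3 A_51_P504602. The high-fat difference was then -0.13 for Strn A_52_P95060, 0.21 for Prkd3 A_52_P94495, 0.30 for Sos1 A_52_P341339 and 0.050 for Map4k3 A_51_P504602. Over both diets the mean was then 0.052 for Map4k3 A_51_P504602. The interaction was then 0.047 for Prkd3 A_52_P669996 and 0.21 for Cyp1b1. With uncorrected, uncentred mean signals the low-fat difference was 0.078 for Strn A_52_P95060, 0.32 for Dhx57 and 0.18 for Map4k3 A_51_P504602. For high fat the value was 0.22 for Eif2ak2, 0.55 for Prkd3 A_52_P94495, 0.58 for Cdc42ep3, 0.16 for Galm, 0.30 for Sos1 A_52_P341339, 0.17 for Map4k3 A_51_P475646 and 0.55 for Map4k3 A_51_P504602. In the mean of both diets it was 0.30 for Strn A_52_P95060, 0.23 for Cdc42ep3, 0.019 for Map4k3 A_51_P475646 and 0.36 for Map4k3 A_51_P504602. The interaction was then 0.18 for Prkd3 A_51_P106397, 0.14 for Prkd3 A_52_P669996, 0.30 for Map4k3 A_51_P475646, 0.37 for Map4k3 A_51_P504602, 0.050 for Map4k3 A_52_P320044 and 0.74 for Cyp1b1. With uncorrected, median-centred mean signals the low-fat difference was 0.22 for Dhx57 and 0.086 for Map4k3 A_51_P504602. The high-fat difference was then 0.27 for Prkd3 A_52_P94495, 0.30 for Cdc42ep3, 0.018 for Sos1 A_52_P341339 and 0.27 for Map4k3 A_51_P504602. Over both diets the mean was then 0.11 for Strn A_52_P95060, 0.042 for Cdc42ep3 and 0.18 for Map4k3 A_51_P504602. The interaction was then -0.12 for Qpct, 0.11 for Map4k3 A_51_P475646, 0.18 for Map4k3 A_51_P504602 and 0.55 for Cyp1b1. With median centring the low-fat difference was 0.17 for Strn A_52_P95060, 0.42 for Dhx57 and 0.28 for Map4k3 A_51_P504602. For high fat the value was -0.0018 for Strn A_51_P195982, 0.032 for Prkd3 A_52_P94495 and 0.098 for Cdc42ep3. In the mean of both diets it was 0.12 for Strn A_52_P95060 and 0.13 for Map4k3 A_51_P504602. The interaction was then -0.12 for Strn A_52_P95060, -0.21 for Qpct, -0.041 for Dhx57 and -0.19 for Sos1 A_51_P125792. With the sample channel alone the low-fat difference was 0.018 for Strn A_52_P95060, 0.25 for Dhx57 and -0.017 for Map4k3 A_52_P320044. The high-fat difference was then 0.048 for Cdc42ep3 and -0.20 for Map4k3 A_52_P320044. Over both diets the mean was then 0.0098 for Strn A_52_P95060, -0.020 for Prkd3 A_52_P94495 and -0.11 for Map4k3 A_52_P320044. The interaction was then -0.017 for Strn A_52_P95060, 0.22 for Prkd3 A_52_P669996, -0.0092 for Qpct, -0.024 for Dhx57, -0.028 for Sos1 A_51_P125792 and 0.17 for Cyp1b1. With scan as a block the low-fat difference was -0.0089 for Prkd3 A_51_P106397 and -0.026 for Sos1 A_51_P125792. For high fat the value was 0.027 for Eif2ak2, -0.26 for Prkd3 A_51_P106397, 0.050 for Sos1 A_52_P341339 and -0.032 for Map4k3 A_52_P320044. In the mean of both diets it was 0.056 for Strn A_52_P95060, -0.14 for Prkd3 A_51_P106397 and -0.0085 for Sos1 A_51_P125792. With slide as a block the low-fat difference was 0.12 for Strn A_52_P95060, 0.17 for Dhx57, -0.12 for Sos1 A_51_P125792 and 0.00046 for Map4k3 A_51_P504602. The high-fat difference was then 0.026 for Eif2ak2, -0.27 for Prkd3 A_51_P106397, 0.038 for Sos1 A_52_P341339 and -0.068 for Map4k3 A_52_P320044. Over both diets the mean was then 0.12 for Strn A_52_P95060, -0.11 for Prkd3 A_51_P106397 and -0.052 for Sos1 A_51_P125792. The interaction was then -0.0069 for Strn A_52_P95060, 0.058 for Prkd3 A_51_P315941 and -0.036 for Qpct. Leaving out each array in turn changed the sign of 29 differences at least once. The low-fat difference then ran from -0.11 to 0.083 for Dhx57, -0.29 to 0.21 for Map4k3 A_51_P504602, -0.092 to 0.13 for Sos1 A_51_P125792, -0.011 to 0.28 for Sos1 A_52_P341339, -0.16 to 0.67 for Map4k3 A_52_P320044 and -0.25 to 0.036 for Strn A_52_P95060. The high-fat difference then ran from -0.12 to 0.075 for Strn A_52_P95060, -0.32 to 0.14 for Prkd3 A_52_P94495, -0.058 to 0.017 for Sos1 A_52_P341339, -0.22 to 0.10 for Map4k3 A_51_P504602, -0.12 to 0.093 for Strn A_51_P195982, -0.20 to 0.073 for Eif2ak2, -0.11 to 0.19 for Sos1 A_51_P125792, -0.23 to 0.23 for Map4k3 A_52_P320044, -0.15 to 0.40 for Prkd3 A_51_P106397 and -0.24 to 0.20 for Cdc42ep3. The mean of both diets then ran from -0.18 to 0.077 for Map4k3 A_51_P504602, -0.014 to 0.13 for Sos1 A_52_P341339, -0.070 to 0.35 for Map4k3 A_52_P320044, -0.13 to 0.019 for Strn A_52_P95060 and -0.051 to 0.099 for Sos1 A_51_P125792. The interaction then ran from -0.21 to 0.13 for Prkd3 A_51_P315941, -0.12 to 0.18 for Sos1 A_51_P125792, -0.27 to 0.24 for Map4k3 A_51_P504602, -0.66 to 0.18 for Map4k3 A_52_P320044, -0.033 to 0.25 for Strn A_52_P95060, -0.72 to 0.031 for Prkd3 A_51_P106397, -0.13 to 0.11 for Prkd3 A_52_P669996 and -0.20 to 0.36 for Qpct. Within single scans, without a test, 21 of 68 differences had the opposite sign. The cause of these changes was not tested.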
